A study of Mus musculus with 15 samples.

Results

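Odorant receptors are G protein-coupled receptors that sit in the cilia of sensory neurons in the nose, where odour molecules activate them. Each mature sensory neuron is known to express 1 allele of 1 receptor gene out of a very large family, and its axon runs to the glomeruli of the olfactory bulb that collect the input of that receptor. Receptor mRNA is also carried into those axons, so that low amounts of it can be found in bulb tissue although the cell bodies lie outside it. The 37 genes described here are the odorant receptor genes that were detected in every bulb sample of this study. They were chosen by their own signal, as the genes named Olfr and a number that had a probe well above background, by the scanner program's own flag, on all 15 arrays, out of 1077 such genes on the array. The brightest probe of that kind stood for each gene, so detection on all arrays was fixed by the choice and is not a result.

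Total RNA of the olfactory bulb from 15 male mice, aged 6 to 8 weeks, was hybridised to Agilent mouse arrays with 1 colour and 1 array a mouse, in a study of corticotropin-releasing hormone (CRH, a stress peptide) and its receptor CRHR1. In the active CRHR1 group (CRHR-Cre;AAV-flex (CA)CRHR, strain C57Bl/6), 5 mice with Cre recombinase in cells that express CRHR1 had received a Cre-dependent adeno-associated virus coding for a constitutively active CRHR1. In the knockout group (CRHR1-/- KO;AAV-flex GFP, strain 129S4/SvJae), 5 mice lacked CRHR1 and had received a Cre-dependent virus coding for green fluorescent protein. In the Cre GFP group (CRHR-Cre;AAV-flex GFP, strain C57Bl/6), 5 mice of the Cre line had received that same fluorescent protein virus, and the labels use them in place of wild type. Each bulb had received 500 nL of virus 2 weeks before. The knockout group differs from both others in strain and CRHR1 loss at once, and in Cre as far as the titles name it, and these cannot be told apart.

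Levels are log2 signals minus the 75th percentile of the array, so that 1 unit is a 2-fold difference in signal, and changes are differences of group means on that scale. The lowest 75th percentile of the signal was 663 and the highest 1172. The share of probes well above background ranged over the arrays from 58.8% to 66.9%. All active CRHR1 arrays were on slide 2 and all knockout arrays on slide 1, so these groups share no slide. Of the Cre GFP arrays, numbers 1 to 3 were on slide 1 and the other two on slide 2. Crhr1 itself, the targeted gene, lay between 2.99 and 3.32 in knockout bulbs, against 3.48 to 3.86 in Cre GFP bulbs, a log2 change of -0.47 ± 0.09 (SE; limma adjusted p = 0.0118), and where its probe lies relative to the deleted part was not determined. In active CRHR1 bulbs it lay between 3.57 and 3.83, with a log2 change of 0.09 ± 0.09 against Cre GFP (adjusted p = 0.527). Knockout array 2 stood apart, and not for this gene family alone: 243 Olfr genes were well above background on it, against 80 to 145 on the other 14 arrays, and 97 Olfr genes reached that mark on it and on no other array. This array also had the highest share of all probes above background (66.9%, next 64.1% on Cre GFP array 1). Its mean correlation with the other arrays of its group, over all probes, was the lowest of the arrays (0.976). Without it, 38 Olfr genes would have met the rule in place of 37.

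The probes themselves bear on what was detected. Of the 37 genes 5 have a second probe on the array, which overlaps the first in Olfr373, Olfr965 and Olfr32. The pairs of Olfr373 and Olfr965 are printed because they show how close a detected and a mostly undetected probe can lie. The 60-base probes below are written 5′ to 3′ on the coding strand of the receptor, with the bases shared by both probes of a gene in capitals, and all lie in the coding sequence by their position in the transcript. Positions refer to the mm9 build that the scanner files name.
Olfr373, detected probe, chr8:74624499-74624558, plus strand: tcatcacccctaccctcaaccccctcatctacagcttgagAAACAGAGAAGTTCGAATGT
Olfr373, second probe, chr8:74624539-74624598, plus strand: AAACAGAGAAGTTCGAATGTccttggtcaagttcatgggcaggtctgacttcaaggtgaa
Olfr965, detected probe, chr9:39527651-39527710, plus strand: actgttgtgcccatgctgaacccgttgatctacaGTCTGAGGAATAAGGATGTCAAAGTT
Olfr965, second probe, chr9:39527685-39527744, plus strand: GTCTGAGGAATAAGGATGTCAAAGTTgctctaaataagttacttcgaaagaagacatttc

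The second probe of Olfr373, which shares 20 bases with the detected one, was well above background on 0 of 15 arrays. That of Olfr965 shares 26 bases and was above background on 1 array. The second probes of Olfr1115, which lies directly beside the detected probe, and of Olfr629 were above background on 0 arrays as well. Olfr32 was the exception, with a second, overlapping probe above background on 13 arrays. Thus 3 of the 5 further probes (60%) were above background on no array, against 16.5% of 14905 further probes of the other genes that had a probe detected on all arrays, and 0 of the 5 were detected on all arrays, against 58.4%. These shares were not matched for signal level, those of the receptors rest on 5 probes, and the difference was not tested. The other 32 genes have 1 probe each on the array, so their signal has no second probe to set it against.

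Parts of receptor coding sequence are alike across the family, and some probes sit on them. A 14-base pattern with some free positions was written for codons of the NPxxY motif (asparagine, proline, a pair of other residues, tyrosine), which ends the last membrane-spanning segment of these receptors and is conserved in the family. It was picked after the probe sequences had been read, was searched on both strands and overlaps no other pattern searched. The probes of Olfr373, Olfr965 and Olfr629 hold it, and so do the 3 below, where it is in capitals.
Olfr522, chr7:147347974-147348033, minus strand: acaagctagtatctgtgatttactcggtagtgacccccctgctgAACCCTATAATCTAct
Olfr1368, chr13:21234026-21234085, minus strand: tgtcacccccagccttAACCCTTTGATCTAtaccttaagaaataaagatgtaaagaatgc
Olfr1402, chr3:97214221-97214280, minus strand: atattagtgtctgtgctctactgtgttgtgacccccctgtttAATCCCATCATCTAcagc

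The pattern was in 6 of the 37 probes (16.2%), against 58 of 725 Olfr probes detected on no array (8%), 106 of all 1170 Olfr probes (9.06%) and 134 of 54511 probes of other genes (0.246%). The longest run of letters that a detected probe shared with a probe of another Olfr gene had a median of 12 bases and a range of 10 to 21. Olfr965 shared 21 bases with a probe of Olfr145 and Olfr32 shared 21 bases with a probe of Olfr1199, and those probes were above background on 0 arrays and 1 array. GC content had a median of 45% in the 37 probes, against 38.3% in the Olfr probes detected on no array and 43.3% in the probes of other genes. Whether base composition or shared sequence had a part in which receptor probes were detected was not tested.

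**Figure D1:**
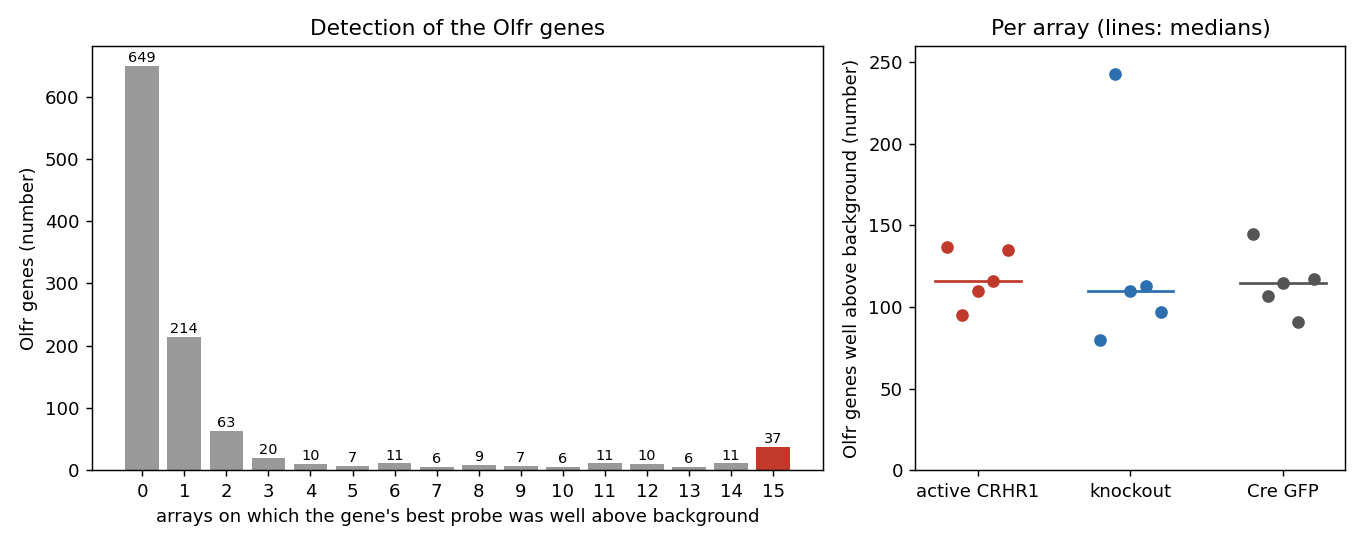
Left, the number of Olfr genes by the number of arrays, from 0 to 15, on which the best probe of the gene was well above background; 649 genes were at 0 and the 37 genes at 15 are in red. Right, the number of Olfr genes above background on each array, with group medians as lines; knockout array 2, at 243, lies above all other arrays.

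Detection on all arrays was rarer for Olfr genes than for the rest of the array. Of the 1077 Olfr genes, 649 (60.3%) were above background on no array and 37 (3.44%) on all arrays, against 16.7% and 62.5% of the 33887 other genes. Between these ends lay 391 genes, of which 214 were above background on 1 array. Other receptor families were also low. Of the vomeronasal receptor genes, which serve the detection of pheromones, 10 of 163 of type 1 (6.13%) and 3 of 92 of type 2 (3.26%) were on all arrays. Trace amine receptors, a small second family of receptors in the nose, had 0 of 14, taste receptors 3 of 38 (7.89%) and formyl peptide receptors 1 of 6. Differences between these families were not tested. The number of Olfr genes above background had a median of 116 on active CRHR1 arrays, 110 on knockout arrays and 115 on Cre GFP arrays. The ranges of 95 to 137, 80 to 243 and 91 to 145 overlapped. The count of Olfr genes on all 5 arrays of 1 group and on none of the others was 0 for each group.

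Just outside the rule were 11 Olfr genes above background on 14 arrays, and the 5 with the highest mean level among them were Olfr1496 at -4.44, Olfr141 at -4.73, Olfr110 at -4.78, Olfr482 at -4.85 and Olfr122 at -4.95. Just inside it, the lowest mean levels were -5.22 for Olfr578, -5.07 for Olfr32, -4.94 for Olfr96, -4.88 for Olfr213 and -4.81 for Olfr212. Levels on the 2 sides of the rule thus overlapped. The dimmest probe called well above background lay between -6.25 and -5.73 on the 15 arrays, and the median of the 37 mean levels was -4.18. Mean levels were under -4 for 22 of the 37 genes, between -4 and -2 for 10 and over -2 for 5. Levels of different probes set no order of transcript amounts, since probes differ in how they bind.

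By RefSeq's receptor family names, 5 of the 35 genes that have one belong to class I, the receptors related to those of fish, and the rest to class II. The class I genes were Olfr544, Olfr549, Olfr578, Olfr609 and Olfr629, and their share of 14.3% stood beside 11.1% among the Olfr genes outside the rule. Chromosome 7 holds 9 of the 37 genes (3.88% of its Olfr genes), chromosome 2 holds 8 (2.90%) and chromosome 17 holds 4 (8.16%), against 3.44% of all Olfr genes, while 0 of the 62 Olfr genes on chromosome 10 and 0 of the 39 on chromosome 14 were among them. Olfr207 has no mapped probe position in the files. In RefSeq gene order (assembly GRCm38.p6), 8 of 36 genes lie next to a gene that is not an odorant receptor (22.2%), against 15.7% of the other Olfr genes. Olfr1402 lies between Bcl9 and Chd1l with no receptor gene beside it. Direct neighbours of each other were Olfr212 and Olfr213, Olfr96 and Olfr97, and Olfr149 and Olfr965, which makes 6 of 36 genes beside another of the 37 (16.7%), against 5.08% of the other Olfr genes.

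**Figure D2:**
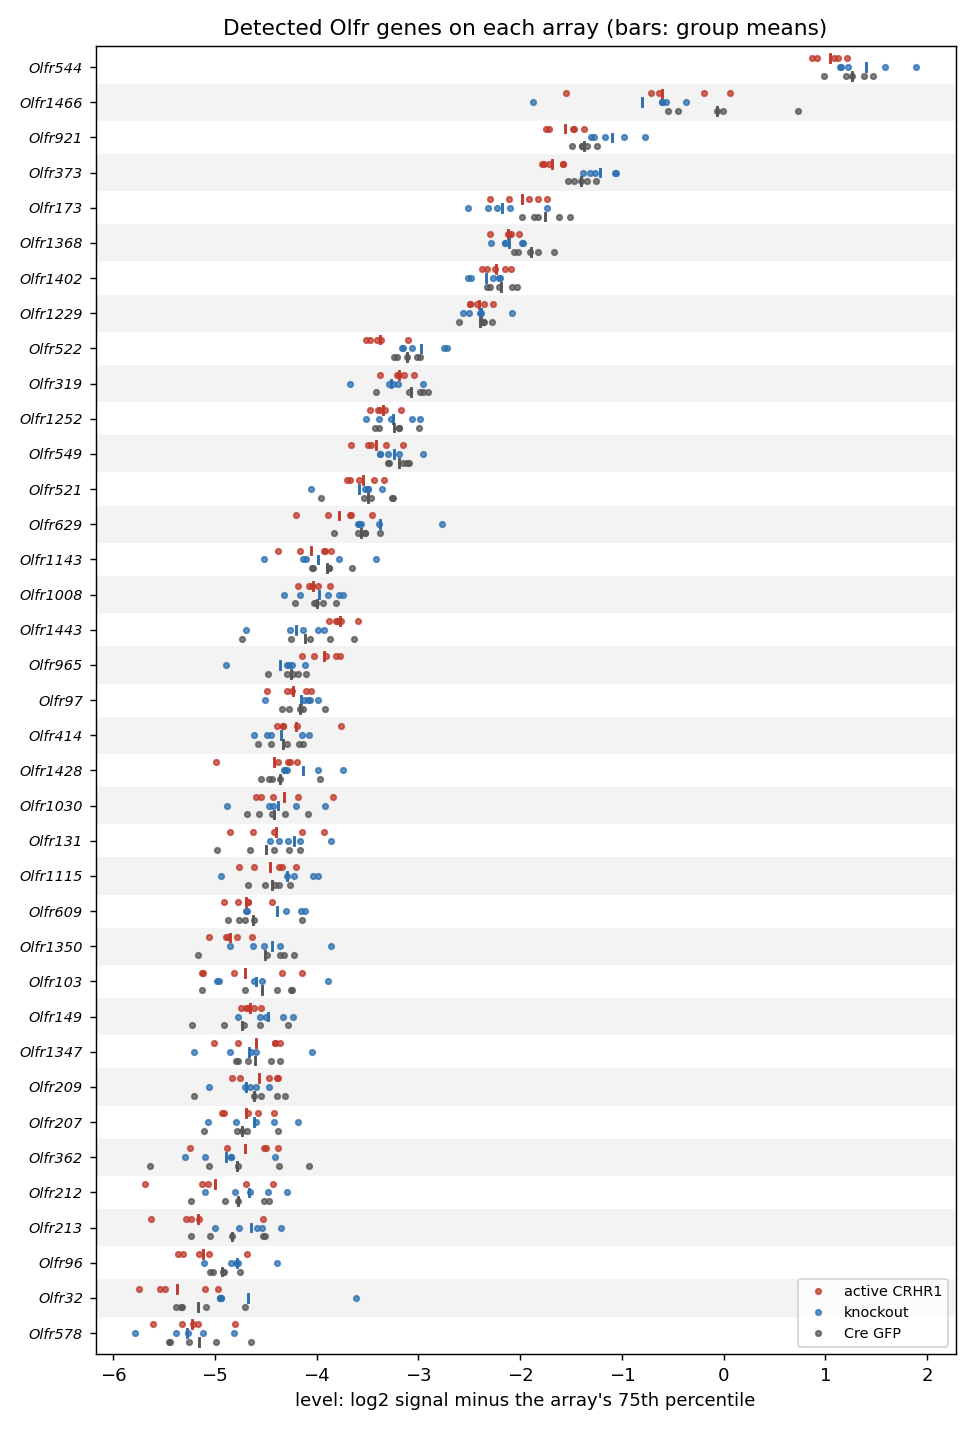
Level (log2 signal minus the array's 75th percentile) of the 37 genes on each array, with active CRHR1 above knockout above Cre GFP for each gene and short bars at the group means. The groups lie close together for nearly all genes, and the mean levels run from 1.23 for Olfr544 to -5.22 for Olfr578.

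Olfr544, a class I receptor known to respond to azelaic acid, had levels of 0.86, 1.09, 1.12, 1.21 and 0.92 on active CRHR1 arrays, of 1.22, 1.16, 1.14, 1.59 and 1.89 on knockout arrays, and of 0.99, 1.37, 1.27, 1.20 and 1.47 on Cre GFP arrays. All 15 values lay above the 75th percentile of the array, and the groups overlapped. Its probe is at chr7:109632628-109632687 on the minus strand, and its place in the transcript relative to the coding sequence was not determined. Olfr1466, at chr19:13416809-13416868, had the widest spread over the 15 arrays of all 37 genes (SD 0.62), with -0.64, -0.72, 0.06, -0.20 and -1.55 on active CRHR1 arrays, -0.61, -0.57, -1.87, -0.61 and -0.37 on knockout arrays, and -0.54, -0.06, -0.00, -0.45 and 0.73 on Cre GFP arrays. Its highest value was on a Cre GFP array and its lowest on a knockout array, and the groups overlapped.

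Olfr173, at chr16:58796971-58797030, had -2.30, -1.73, -1.83, -1.92 and -2.11 on active CRHR1 arrays, -1.74, -2.22, -2.10, -2.31 and -2.52 on knockout arrays, and -1.87, -1.98, -1.82, -1.62 and -1.51 on Cre GFP arrays. Knockout arrays 2 to 5 were below all Cre GFP arrays and knockout array 1 was not. Olfr1368, whose probe is printed above, had -2.29, -2.12, -2.10, -2.01 and -2.09 on active CRHR1 arrays, -2.15, -2.14, -2.29, -1.97 and -1.98 on knockout arrays, and -2.02, -2.06, -1.83, -1.90 and -1.67 on Cre GFP arrays. Active CRHR1 and knockout arrays lay a little below Cre GFP arrays on average, with overlap in each case.

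Among the bright probes, 3 more varied little. Olfr1402 had -2.32, -2.09, -2.24, -2.14 and -2.37 on active CRHR1 arrays, -2.52, -2.21, -2.19, -2.27 and -2.49 on knockout arrays, and -2.03, -2.08, -2.29, -2.21 and -2.33 on Cre GFP arrays. Olfr1229, at chr2:89122461-89122520, had -2.50, -2.49, -2.36, -2.27 and -2.42 on active CRHR1 arrays, -2.56, -2.51, -2.40, -2.39 and -2.08 on knockout arrays, and -2.35, -2.28, -2.38, -2.60 and -2.37 on Cre GFP arrays. Olfr319, at chr11:58515786-58515845, had -3.14, -3.21, -3.19, -3.04 and -3.38 on active CRHR1 arrays, -3.67, -2.96, -3.29, -3.20 and -3.25 on knockout arrays, and -2.90, -2.98, -3.09, -3.41 and -2.95 on Cre GFP arrays. In all 3 genes the groups overlapped, and the standard deviations over the 15 arrays were 0.14, 0.13 and 0.21. The remaining 22 genes had mean levels from -3.28 for Olfr1252 and Olfr549, through -3.54 for Olfr521, -3.57 for Olfr629, -3.98 for Olfr1143, -4.0 for Olfr1008, -4.18 for Olfr97, -4.29 for Olfr414, -4.30 for Olfr1428, -4.37 for Olfr1030 and for Olfr131, and -4.40 for Olfr1115. Lower still were Olfr609 at -4.57, Olfr103 at -4.61, Olfr149, Olfr1347 and Olfr209 at -4.62, Olfr207 at -4.68, Olfr362 at -4.79, and Olfr212, Olfr96 and Olfr578 at the levels given above.

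In knockout bulbs, 0 odorant receptor genes rose or fell against Cre GFP bulbs. By limma over all 23420 genes, 0 of the 37 passed an adjusted p of 0.05, where 4.07% of all genes did (2.42% higher and 1.65% lower, so that 59.4% of calls were higher, against 35.8% with median centring). At an unadjusted p under 0.05 there were 5 of 37, against 20.8% of all genes. The median log2 change of the 37 genes was 0.01, the same as the 0.01 of all genes, and single changes ran from -0.74 to 0.49. Mean levels were higher in knockout bulbs for 20 genes and lower for 17. Arrays of the 2 groups did not overlap for 0 of the 37 genes, against 5.94% of all genes. A difference in bulk tissue cannot tell fewer axons or cells of a type from less RNA in each.

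The 3 largest changes in that comparison were those of Olfr1466 at -0.74 ± 0.34 (SE; limma adjusted p = 0.231), Olfr32 at 0.49 ± 0.25 (adjusted p = 0.281) and Olfr173 at -0.42 ± 0.14 (adjusted p = 0.118). Olfr1466 rests in part on knockout array 3, at -1.87, and Olfr32 on knockout array 2. Without that array the change of Olfr32 was 0.22 (adjusted p = 0.472). Olfr173 passed the threshold only when knockout array 1 was left out, with a log2 change of -0.53 (adjusted p = 0.0418).

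In active CRHR1 bulbs, 1 of the 37 genes passed the test against Cre GFP bulbs. The median log2 change was -0.07 for the 37 genes and -0.07 for all genes, and 27 of the 37 had lower means (73.0%, against 64.2% of all genes). Over other settings the receptor median was lowest with the authors' values, at -0.21 over the 33 of the 37 genes that they hold, where that of all genes was -0.17. It was highest with the slide as a fixed block, at -0.04, where that of all genes was -0.08. Olfr373 fell and 0 genes rose, so that 2.70% of the 37 were called, against 10.6% of all genes (4.56% higher and 6.08% lower). Of all calls 42.9% were higher, against 51.9% with median centring, 62.2% with the slide as a fixed block and 73.4% within the slide that holds both groups. At an unadjusted p under 0.05 there were 5 of 37, against 29.3% of all genes. Changes of the other 36 ran from -0.54 for Olfr1466 to 0.34 for Olfr1443.

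Olfr373, whose detected probe is printed above, had -1.72, -1.78, -1.58, -1.58 and -1.76 on active CRHR1 arrays, -1.27, -1.31, -1.38, -1.05 and -1.06 on knockout arrays, and -1.47, -1.34, -1.53, -1.40 and -1.25 on Cre GFP arrays. Every active CRHR1 array was below every array of the other groups, and knockout and Cre GFP arrays overlapped. The log2 change against Cre GFP was -0.29 ± 0.08 (SE, n = 5 and 5; limma adjusted p = 0.0354). Of the 37 genes it was the only gene whose arrays did not overlap in that comparison (2.70%), against 11.3% of all genes. With the slide as a fixed block, which leaves the slide 2 arrays for this comparison, the change was -0.36 with an adjusted p of 0.0698. The call was also lost without any of Cre GFP arrays 2, 4 and 5 and active CRHR1 arrays 1, 2 and 5, with adjusted p-values up to 0.0963. Median centring (adjusted p = 0.0841), the authors' scaled values (adjusted p = 0.0803) and no filter on dim probes (adjusted p = 0.0686) ended it too, and over all settings other than left-out arrays the adjusted p ran from 0.0294 to 0.0841.

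**Figure D3:**
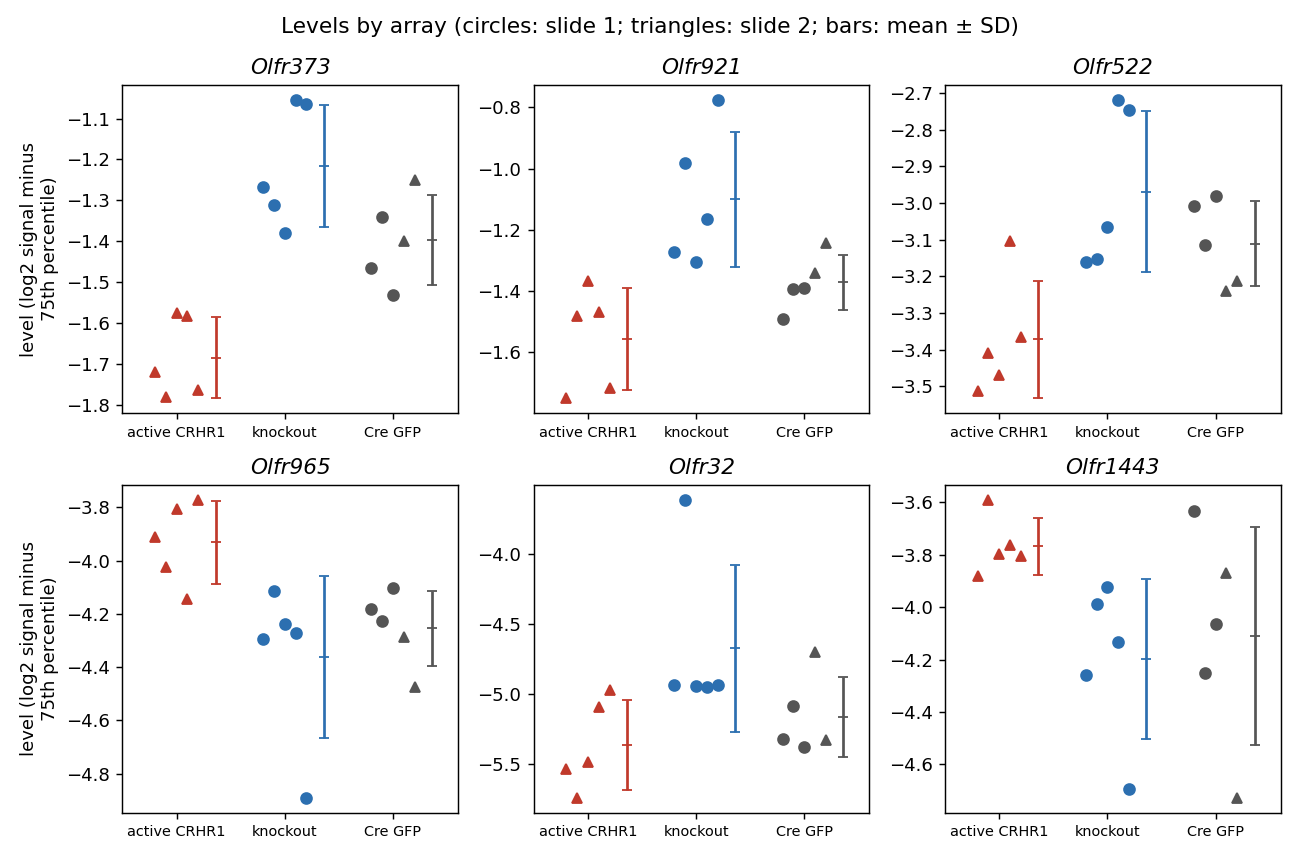
Levels (log2 signal minus the array's 75th percentile) of 6 genes on each array, by group, with slide 1 arrays as circles and slide 2 arrays as triangles, and mean ± SD (n = 5) beside each group. The active CRHR1 arrays of Olfr373 lie below all others, those of Olfr965 are the highest on average, and knockout array 2 of Olfr32, at -3.61, stands alone.

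The active CRHR1 and knockout bulbs, which differ most in CRH signalling by the labels but also in strain, Cre and slide, gave the most calls. Olfr373, Olfr921 and Olfr522 fell and Olfr965 rose, so that 4 of 37 genes were called (10.8%), against 28.1% of all genes (9.71% higher and 18.4% lower, so that 34.6% of calls were higher, against 46.2% with median centring). With the slide as a fixed block 1 of the 37 was called, and 794 of 23420 genes in all. The unadjusted count was 10 of 37, against 42.5% of all genes. The median log2 change was -0.08 in the 37 genes, as in all genes (-0.08), and no gene changed by 2-fold (0 of 37). Groups did not overlap for Olfr373, Olfr921, Olfr32 and Olfr1443, which is 10.8% of the 37 genes, against 19.4% of all genes.

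Olfr373 fell by 0.47 on the log2 scale in active CRHR1 against knockout bulbs (SE 0.08; limma adjusted p = 0.00155). With the slide as a fixed block it fell by 0.59 (adjusted p = 0.0410), and it was called under every alternative run for that comparison. The second probe of Olfr373 was above background on 0 arrays and gives no check of this change. Olfr921, at chr9:38583625-38583684, had -1.75, -1.48, -1.37, -1.47 and -1.72 on active CRHR1 arrays, -1.27, -0.98, -1.31, -1.16 and -0.78 on knockout arrays, and -1.49, -1.39, -1.39, -1.34 and -1.24 on Cre GFP arrays. All active CRHR1 arrays were below all knockout arrays. The log2 change was -0.46 ± 0.11 (limma adjusted p = 0.00805), and with the slide as a fixed block -0.59 (adjusted p = 0.0958, the highest of its alternatives, from 0.00204).

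Olfr522, whose probe holds the family pattern, had -3.51, -3.41, -3.47, -3.10 and -3.37 on active CRHR1 arrays, -3.16, -3.15, -3.06, -2.72 and -2.75 on knockout arrays, and -3.01, -3.11, -2.98, -3.24 and -3.21 on Cre GFP arrays. Active CRHR1 array 4 overlapped the knockout arrays and the other 4 lay below them. The log2 change was -0.40 ± 0.11 (adjusted p = 0.0153), and with the slide as a fixed block it was -0.21 (adjusted p = 0.468, the highest of its alternatives, from 0.00243). Olfr965 had -3.91, -4.02, -3.80, -4.15 and -3.77 on active CRHR1 arrays, -4.29, -4.12, -4.24, -4.27 and -4.89 on knockout arrays, and -4.18, -4.23, -4.10, -4.29 and -4.47 on Cre GFP arrays. Its active CRHR1 arrays were higher on average and overlapped both other groups.

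The log2 change of Olfr965 was 0.43 ± 0.13 in active CRHR1 against knockout bulbs (adjusted p = 0.0270). With the slide as a fixed block it was 0.64 (adjusted p = 0.126), with normexp background correction it was -0.00932 (adjusted p = 0.909), and with only the compared groups in the fit the adjusted p was 0.0518. The lowest adjusted p of these alternatives was 0.0108, and the call was lost without active CRHR1 array 1, 3 or 5. Against Cre GFP it was 0.32 ± 0.13 (adjusted p = 0.119), and that change was called when knockout array 5 was left out of the shared fit (adjusted p = 0.0255). Its second probe was above background on 1 array and gives no check of this change.

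For further genes the call in active CRHR1 against knockout bulbs depended on the setting. Olfr544, Olfr609, Olfr629 and Olfr96 were called with normexp background correction and with the slide as a random block, and Olfr1428 with normexp only. Olfr544 and Olfr96 were also called without knockout array 3, and Olfr96 without active CRHR1 array 2. As reported, Olfr544 had a log2 change of -0.36 ± 0.14 (SE; limma adjusted p = 0.0688). The arrays of 4 more such genes follow. Olfr32, at chr2:89978386-89978445, had -5.54, -5.75, -5.49, -5.09 and -4.97 on active CRHR1 arrays, -4.94, -3.61, -4.95, -4.95 and -4.94 on knockout arrays, and -5.33, -5.09, -5.38, -4.70 and -5.33 on Cre GFP arrays. Its log2 change in active CRHR1 against knockout bulbs was -0.69 ± 0.25 (adjusted p = 0.0524), and -0.43 without knockout array 2 (adjusted p = 0.0700). It was called in 7 of 12 other settings, with adjusted p from 0.0190 to 0.218. Among them were quantile normalization, median centring and the authors' values, of which the last 2 scale alike and are no separate checks. It was also called without knockout array 3 (adjusted p = 0.0478). Both probes of the gene, which overlap, were highest on knockout array 2, at -3.61 and -3.55. By the second probe the active CRHR1 and knockout arrays of Olfr32 overlapped. Active CRHR1 arrays 3 and 5, at -4.42 and -4.86, lay above knockout array 1, at -5.35. That probe was not above background on active CRHR1 arrays 2 and 4. Olfr1443, at chr19:12758013-12758072, had -3.88, -3.59, -3.80, -3.76 and -3.80 on active CRHR1 arrays, -4.26, -3.99, -3.92, -4.13 and -4.69 on knockout arrays, and -3.63, -4.25, -4.07, -3.87 and -4.73 on Cre GFP arrays. All its active CRHR1 arrays were above all knockout arrays (log2 change 0.43 ± 0.18, limma adjusted p = 0.0860), and Cre GFP arrays spanned both. It was called in 1 of 12 other settings, the fit of the compared groups alone (adjusted p = 0.0443), and without Cre GFP array 5 (adjusted p = 0.0409), and its adjusted p was up to 0.402 otherwise.

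Olfr1350, at chr7:6523331-6523390, had -5.06, -4.87, -4.64, -4.78 and -4.89 on active CRHR1 arrays, -4.85, -4.36, -4.51, -4.62 and -3.86 on knockout arrays, and -5.17, -4.22, -4.32, -4.36 and -4.48 on Cre GFP arrays. Olfr213, at chr6:116491184-116491243, had -5.28, -5.63, -5.16, -4.53 and -5.23 on active CRHR1 arrays, -5.00, -4.35, -4.54, -4.58 and -4.76 on knockout arrays, and -4.51, -4.53, -5.23, -5.04 and -4.83 on Cre GFP arrays. Both had lower means in active CRHR1 bulbs, with overlap, and log2 changes against knockout bulbs of -0.41 ± 0.19 (limma adjusted p = 0.119) and -0.52 ± 0.19 (adjusted p = 0.0592). Olfr1350 was called in 1 of 11 other settings, normexp background correction (adjusted p = 0.0411, and up to 0.327 in the others). Olfr213 was called in 4 of 12, with adjusted p from 0.0162 to 0.546, among them median centring and the authors' values, which scale alike. It was also called without knockout array 1 (adjusted p = 0.0427) or active CRHR1 array 4 (adjusted p = 0.0144). Olfr212, the neighbour of Olfr213, had a mean of -5.00 in active CRHR1 bulbs and -4.66 in knockout bulbs. The standard error of a change had a median of 0.152 over the 37 genes and 0.108 over all genes, so that changes of receptor genes were measured less precisely.

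**Figure D4:**
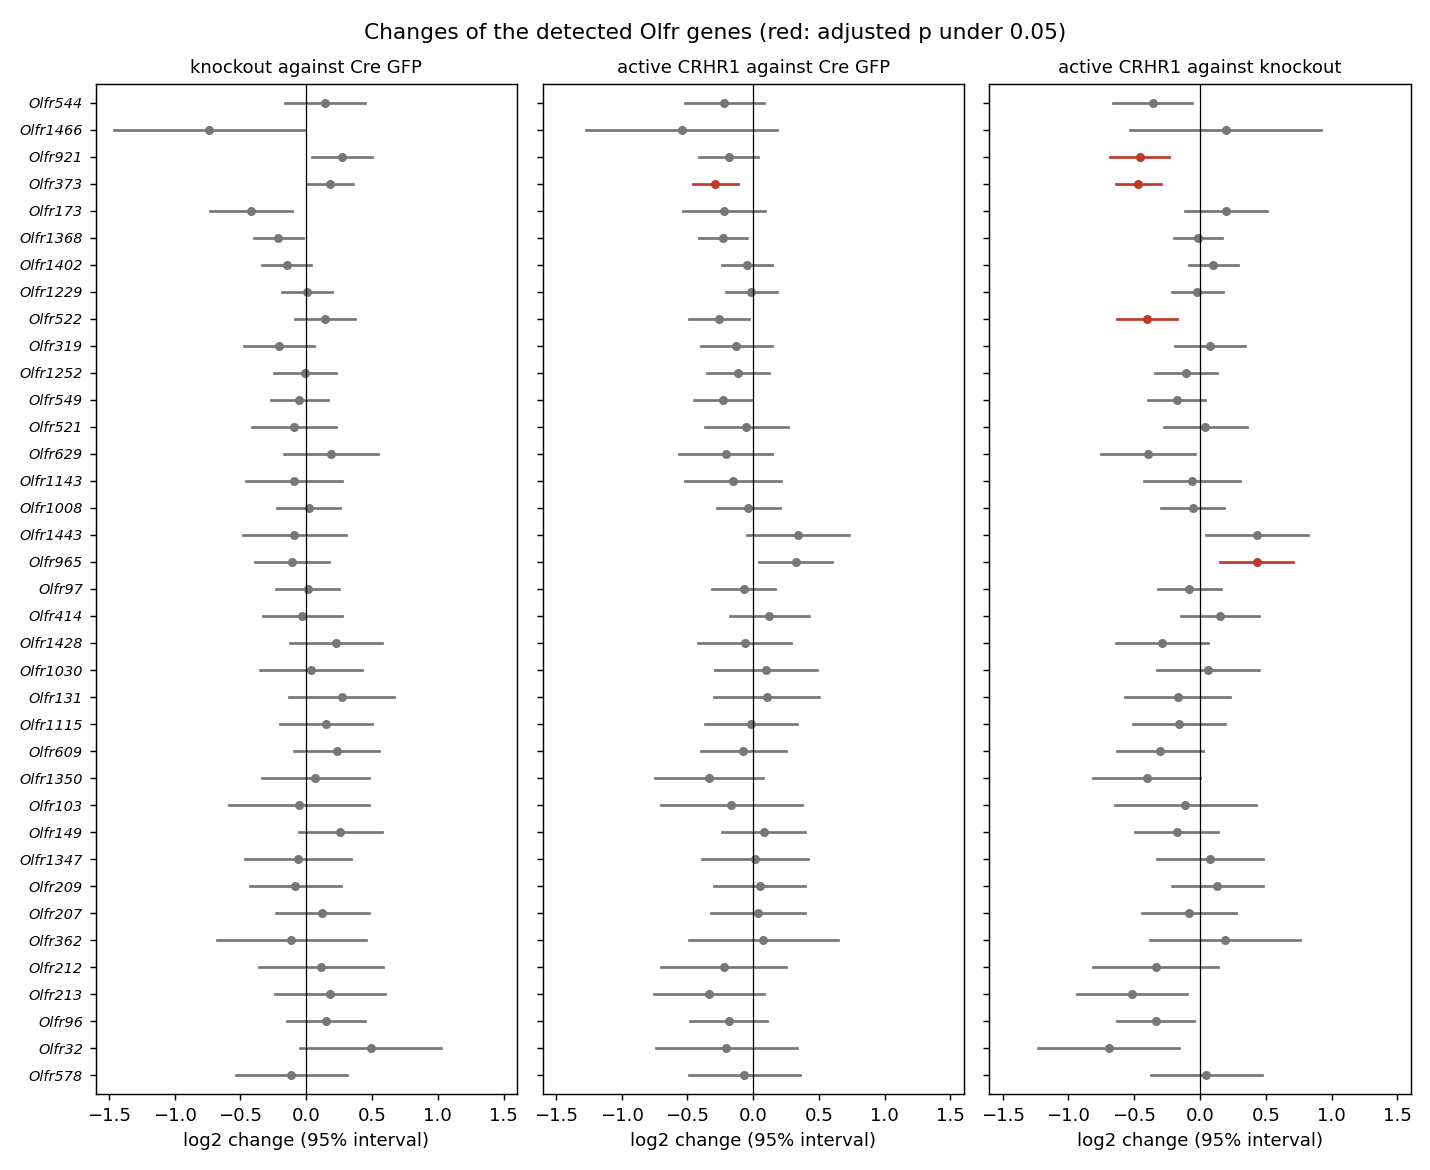
Log2 change of the 37 genes in the 3 comparisons (points) with 95% intervals from limma (lines), in the order of their mean level; genes with an adjusted p under 0.05 are red. There are 0 red genes in knockout against Cre GFP, 1 in active CRHR1 against Cre GFP and 4 in active CRHR1 against knockout.

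Genes of the sensory neurons were called at shares that can be read against those of all genes, which were 4.07% in knockout against Cre GFP, 10.6% in active CRHR1 against Cre GFP and 28.1% in active CRHR1 against knockout bulbs. Among 18 genes of sensory neuron identity and axons, 0 changed in knockout against Cre GFP bulbs and 3 fell in active CRHR1 against Cre GFP bulbs: Gap43, a protein of growing axons, by 0.34 (limma adjusted p = 0.0267), Stmn2, a regulator of microtubules, by 0.35 (adjusted p = 0.0375), and Kirrel2, an adhesion molecule of sensory axons, by 0.48 (adjusted p = 0.0228). The median change of that list was -0.13, against -0.07 for all genes. Omp, the olfactory marker protein of mature sensory neurons, had log2 changes of 0.10 ± 0.16 in knockout and -0.14 ± 0.16 in active CRHR1 bulbs against Cre GFP (adjusted p = 0.753 and 0.604). Against knockout bulbs, 3 genes of the list fell and 1 rose in active CRHR1 bulbs. Genes of bulb neurons also fell in active CRHR1 against Cre GFP bulbs. They were 6 of 16 granule cell genes and 2 of 9 mitral and tufted cell genes, with 0 higher in either list. In which cells Gap43, Stmn2 and Kirrel2 fell was not tested. Calls of the gene lists, here and below, are from the fit without the slide as a block. With the slide as a fixed block, fewer of all genes were called. They were 446 in knockout against Cre GFP (953 without the block) and 1060 in active CRHR1 against Cre GFP (2490 without it). In active CRHR1 against knockout bulbs they were 794 (6573 without it).

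Of 16 genes of odorant transduction, the cascade by which a receptor opens ion channels, 1 fell in knockout against Cre GFP bulbs, which was the phosphodiesterase gene Pde1c at -0.37 (limma adjusted p = 0.0490). In active CRHR1 against Cre GFP bulbs 0 changed (4 at an unadjusted p under 0.05), and against knockout bulbs 4 fell, among them Gnal, the G protein subunit that couples to odorant receptors, at -0.27 (adjusted p = 0.0414). That count of 4 of 16 is close to the 28.1% of all genes called. Of 16 genes of receptor choice and trafficking, 2 fell in active CRHR1 against Cre GFP bulbs, the transcription factor genes Lhx2 at -0.40 (adjusted p = 0.00294) and Emx2 at -0.51 (adjusted p = 0.0412), and 0 changed in knockout bulbs (2 at an unadjusted p under 0.05). Both factors are also expressed in cells of the brain, and 2 of 16 genes is close to the 10.6% of all genes called. Against knockout bulbs 3 fell, which were Lhx2, Ebf1 and Reep6.

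Markers of some other cells moved in the same comparisons, and those of others did so less. In active CRHR1 against Cre GFP bulbs, 5 of 7 T cell genes tested rose. Called there were also 1 of 8 astrocyte genes (higher), 1 of 14 genes of endothelium and vessel wall (higher) and 1 of 6 dopaminergic cell genes (lower). Of 7 blood genes 0 were called. Of all genes, 4.56% were called higher and 6.08% lower in active CRHR1 against Cre GFP bulbs. In active CRHR1 against knockout bulbs these shares were 9.71% and 18.4%. Of 14 microglia genes, 11 rose in active CRHR1 against Cre GFP bulbs, with a summed signal of 147 to 216 times the array's 75th percentile in active CRHR1 bulbs and 94.3 to 124 in Cre GFP bulbs, and 6 of 16 granule cell genes fell, with sums of 330 to 379 and 405 to 454. Of 12 genes of ensheathing glia, the cells that wrap sensory axons, 9 fell in active CRHR1 against knockout bulbs, with sums of 252 to 287 and 344 to 433, and 6 of 8 oligodendrocyte genes fell. Their part in the changes of receptor genes was not tested. Of 20 genes of the olfactory mucosa other than neurons 12 were tested and 0 changed in the 3 comparisons (0, 1 and 1 at an unadjusted p under 0.05). Of the 16 on the array, 9 were above background on all 15 arrays, Obp1a among them, and 2, Obp2a and Adh7, on no array.

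**Figure D5:**
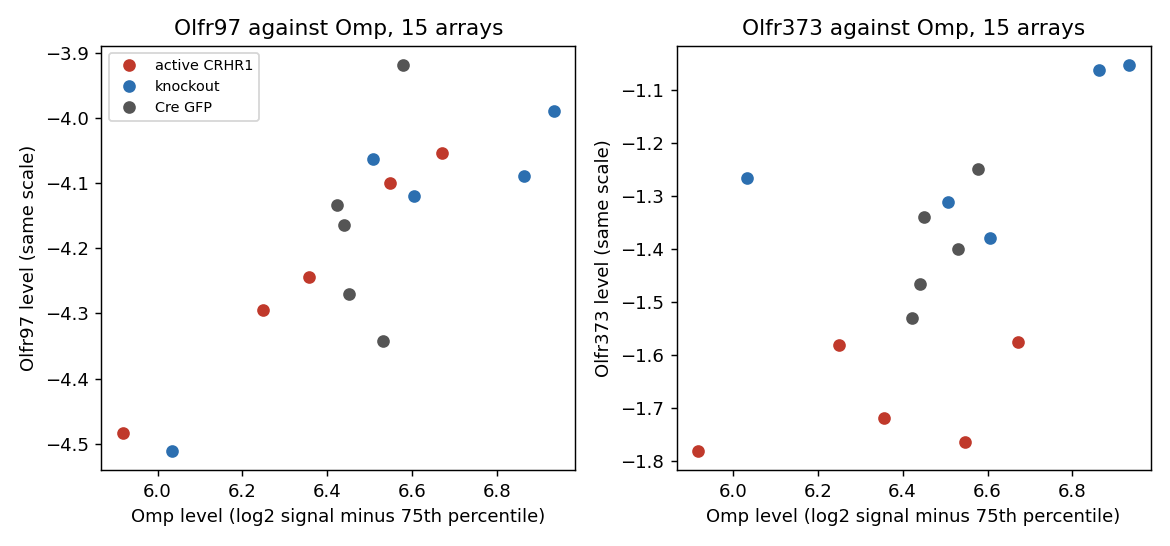
Levels of Olfr97 (left) and Olfr373 (right) against the level of Omp on 15 arrays, coloured by group; both axes are log2 signal minus the array's 75th percentile. Olfr97 is highest where Omp is high, with its lowest values on the 2 arrays lowest in Omp, and the 5 active CRHR1 arrays of Olfr373 are its lowest.

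Levels of the receptor genes were set against Omp over the 15 arrays. Pearson's r with Omp was over 0 for 32 of the 37 genes (86.5%), with a median of 0.30, against 60% of all genes with a median of 0.11. With the group means subtracted, 31 of 37 were over 0 (83.8%, against 56.0% of all genes). Within slide 1 (8 arrays) it was 31 of 37 (83.8%, against 61.5%), and within slide 2 (7 arrays) 21 of 37 (56.8%, against 50.4%). These values share arrays, and genes are not independent replicates.

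No receptor gene passed an adjusted p of 0.05 in a permutation test over 15 arrays adjusted over 23419 genes, where 0% of all genes passed, and at an unadjusted p under 0.05 there were 4 of 37, against 11.2% of all genes. With 100000 permutations the smallest p is 1e-05, so that a gene alone could not have passed. Olfr97 had the highest r of the 37, at 0.83 (two-sided permutation p = 0.00021, adjusted p = 0.328), with Spearman's rho 0.81 (permutation p = 0.00042, adjusted p = 0.585). Without the 2 arrays farthest from the Omp median, active CRHR1 array 2 and knockout array 1, its r was 0.62, within slide 1 it was 0.87 and within slide 2 it was 0.80. For Olfr373 r was 0.57 (permutation p = 0.0272, adjusted p = 0.419) and rho 0.53 (permutation p = 0.0454, adjusted p = 0.585), with r 0.71 without those arrays, 0.59 within slide 1 and 0.52 within slide 2. The lowest r was that of Olfr173, at -0.49 (permutation p = 0.0606, adjusted p = 0.419), with rho -0.39 (permutation p = 0.149, adjusted p = 0.585). Its r was -0.39 without those arrays, -0.88 within slide 1 and 0.08 within slide 2.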

How the data were processed

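Per the labels' protocols, total bulb RNA was extracted with TRIzol, treated with DNase I, and 100 ng was amplified and labelled with Cy3. Per the file headers, Agilent Feature Extraction 10.7.3.1, which the submitters' processing notes also name, gave each spot a background-subtracted and detrended intensity, unscaled between arrays and with a surrogate value for dim spots, and set the flag for a spot well above background. The authors' deposited series table holds a signal that equals the processed intensity divided by the array's median over non-control spots. This was worked out from the scanner signals of the same arrays, and the table was used as an alternative. It scales as median centring does, so these alternatives are not separate checks.

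Of 62976 spots per array, controls and outliers were left out and 0 were saturated. Log2 of the processed signal minus the array's 75th percentile was taken, with the mean of repeated spots. Probes flagged well above background on 4 or more arrays of some group of 5 were tested (33968 of 55681 probes). A gene was its kept probe of highest mean, and a receptor gene the probe of the rule. Receptor genes kept the names of the array design, and 27509 probes were named through RefSeq accessions. The 3 comparisons were fitted together with limma 3.58.1 (lmFit, eBayes) in R 4.3.3 over 15 arrays and 23420 genes, with Benjamini-Hochberg adjustment over all genes and 0.05 as the threshold. Correlations with Omp were tested with 100000 two-sided permutations and adjusted over all genes, since the receptor genes were chosen with results known; the plan had been to adjust over the receptor genes. The members and gene lists were chosen with earlier results of these data known. Levels per array are given for the 10 receptor genes of highest mean, each gene called, and the 3 largest changes of each comparison. Also named are Crhr1, Omp, up to 5 Olfr genes just outside the rule and up to 4 genes of smallest p from each list. The fit and the correlation were tested on simulated data. RefSeq names came from assembly GRCm38.p6, where 36 of the 37 genes have a place in gene order. Per the labels, each array is a separate mouse, and 5 arrays per group limit the precision. Figures were drawn with matplotlib 3.10.9 in Python 3.11.15, with pandas 2.3.3 and numpy 2.4.6, and tables were read in R with data.table (version 1.17.8).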

Additional observations from a re-analysis of the deposited data

Results flagged for a closer look

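Of the 111 sets of 5 arrays (37 genes in 3 groups), 8 held a value whose gap to its nearest neighbour was large for the range of its set (Dixon's 95% critical value of 0.71), where chance gives about 1 in 20, or 5.55. Olfr32 was -3.61 on knockout array 2, with the next at -4.94, the widest gap relative to its range (0.988). Olfr1466 was -1.87 on knockout array 3 (next -0.61), and Olfr965 was -4.89 on knockout array 5 (next -4.29). Knockout array 5 was also high for Olfr629, at -2.77 (next -3.39). Knockout array 1 was low for Olfr521, at -4.06 (next -3.52), and for Olfr97, at -4.51 (next -4.12). Active CRHR1 array 2 was low for Olfr1428, at -4.99 (next -4.37), and Cre GFP array 1 was low for Olfr1350, at -5.17 (next -4.48).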

How the results depend on the processing

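The receptor genes called in active CRHR1 against Cre GFP bulbs, 1 as reported, were 0 with median centring, the authors' scaled values, no filter on dim probes, the slide as a fixed block, the slide that holds both groups alone, and the replicate number as a block. In active CRHR1 against knockout bulbs, 4 of 37 as reported, they were 11 with normexp background correction, 10 with the slide as a random block and 1 with the slide as a fixed block. Of all 23420 genes, 7795, 9601 and 794 were called in those settings. Olfr965 turned to -0.00932 in that comparison with normexp background correction, and the cause was not tested. The genes called over the whole array in knockout against Cre GFP bulbs, 953 as reported, were 1470 with quantile normalization, 388 with median centring, 455 with the authors' values, 545 with no filter, 565 with the compared groups alone, 446 with the slide as a fixed block, 159 within the slide and 627 with the replicate block. In active CRHR1 against Cre GFP bulbs, 2490 as reported, they were 1334 with median centring, 1344 with the authors' values, 1562 with no filter, 1060 with the slide as a fixed block and 414 within the slide. In active CRHR1 against knockout bulbs, 6573 as reported, they were 3630, 3746 and 794 with median centring, the authors' values and the slide as a fixed block, and no slide holds both groups.

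Leaving out each array in turn gave 0 to 1 receptor genes called in knockout against Cre GFP, 0 to 2 in active CRHR1 against Cre GFP and 3 to 7 in active CRHR1 against knockout, and 511 to 969, 1283 to 3698 and 4045 to 7229 genes in all. The count of 7 came without knockout array 3, the count of 1 in the first comparison without knockout array 1, and those of 2 in the second without knockout array 5 or Cre GFP array 1. The count of 0 in the second came without Cre GFP array 2, 4 or 5 or active CRHR1 array 1, 2 or 5. Counts over all genes moved by over 1.5 times without knockout array 2 (620), knockout array 4 (511), Cre GFP array 3 (522) or Cre GFP array 4 (517) in the first comparison. In the second they did so without Cre GFP array 3 (1588), Cre GFP array 5 (1312), active CRHR1 array 1 (1283) or active CRHR1 array 5 (1452), and in the third without knockout array 4 (4107), active CRHR1 array 1 (4045) or active CRHR1 array 5 (4162). Median changes of the receptor genes ran from -0.06 to 0.10, -0.21 to -0.04 and -0.18 to -0.08 over the other settings, and from -0.03 to 0.07, -0.14 to -0.07 and -0.17 to -0.02 with an array left out. Olfr genes detected rose to 101 when 4 of 5 arrays of any group sufficed, and were 48 at 14 of 15 arrays. Detection of every probe, which left 32 genes, and leaving out knockout array 2 in detection were chosen after seeing the data. After each gene's group means were subtracted, same-numbered arrays of different groups correlated between -0.23 and 0.36, with both signs in each comparison. Differently numbered arrays were not set beside them, so no pairing of the samples by number was shown. The replicate block left 0, 0 and 4 receptor genes called. Median centring took the share of higher calls to 35.8%, 51.9% and 46.2% of all calls in the 3 comparisons, against 59.4%, 42.9% and 34.6% as reported. The authors' table holds 33 of the 37 genes. Signals of most receptor probes were low, and the median standard error of a change was 0.152 for the 37 genes, against 0.108 for all genes.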
